A study of Rattus norvegicus with 6 samples.

Results

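This report describes 10 genes that move calcium in and out of the sarcoplasmic reticulum and across the surface membrane of heart muscle cells: Atp2a2, Pln and Sln, which encode the calcium pump and its brakes, Ryr2, Casq2, Trdn, Jph2 and Hrc, which encode the release channel and its partners, and Cacna1c and Slc8a1, which encode surface entry and exit. They were taken by symbol from a table of 21648 genes, and each matched 1 Ensembl identifier. RNA was sequenced from ventricular myocytes isolated from wild-type rat pups of postnatal day 3. The cultures received 10 µM of compound 915 or an equal volume of its solvent DMSO for 72 h, with 3 libraries in each group, and all were plated with serum and 100 µM bromodeoxyuridine, which limits the growth of dividing cells, before a change to a medium with insulin, transferrin and selenium. Compound 915 is labelled an ERR agonist. ERRs, the estrogen-related receptors, are transcription factors known for switching on genes of energy metabolism. The labels call the libraries biological replicates without saying whether they came from separate isolations, so the spread that the p-values rest on may be technical in part.

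In a heart muscle cell each beat begins when the L-type calcium channel lets a little calcium in, and this opens ryanodine receptors that release far more from the sarcoplasmic reticulum. The muscle relaxes when the SERCA pump returns that calcium to the store and the sodium-calcium exchanger carries the rest out of the cell. Small membrane proteins, phospholamban and sarcolipin, slow the pump, and calsequestrin and other acidic proteins hold calcium inside the store beside the release channel. Newborn myocytes are known to depend more on surface calcium fluxes than adult ones, and the balance of pump and phospholamban is a classical measure of how fast a heart relaxes.

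Levels are in CPM, the count of a gene scaled by the total of its library. Without repeated rows the deposited counts summed to between 30639244 and 40010826 per library. The authors' totals that scale the CPM, worked back from counts and CPM, were 32709227 to 42975767. Against these totals the upper limit behind a count of 0 (3 counts, for counting error alone) corresponded to 0.0698 to 0.0917 CPM. All 10 genes were far above this and entered the test. Transcript lengths were not used here, so levels of different genes are not ranked against each other. Genes of cardiomyocyte identity were abundant, with a summed level of 22312 to 23451 CPM over 10 genes in the DMSO libraries. Fibroblast markers were abundant too, at 21051 to 21920 CPM over 9 genes, so the cultures held RNA of other cells. In such bulk libraries fewer cells of a type and less RNA per cell cannot be told apart.

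With 915, 7 of the 10 genes were higher and 1 was lower (edgeR quasi-likelihood test, adjusted p under 0.05 over all genes), and 2 did not pass. Transcripts of the pump, Atp2a2, rose 1.75-fold and those of its main brake, Pln, 1.56-fold, whereas Sln, the gene of its other brake, fell 1.62-fold. The release channel gene Ryr2 and its partners Jph2, Casq2 and Hrc rose by smaller steps, 1.20-fold to 1.36-fold. The exchanger gene Slc8a1 rose 1.20-fold, and the L-type channel gene Cacna1c and the triadin gene Trdn did not pass. Over all 14253 genes tested, 49.8% were called in either direction, 24.3% higher and 25.5% lower, and among the 3640 genes with a mean of at least 50 CPM, a level that 9 of the 10 genes reached, 41.0% were called higher and 24.3% lower. The median log2 fold change was 0.28 over the 10 genes and −0.01 over all genes tested. The 915 libraries did not overlap the DMSO libraries in CPM for these same 8 genes, 7 above and 1 below, against a background of 23.9% above and 32.8% below over all genes tested. Together the 10 genes took 4760 to 5031 CPM in the DMSO libraries and 6852 to 7292 CPM in the 915 libraries, and most of that sum came from Atp2a2 and Pln.

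**Figure D1:**
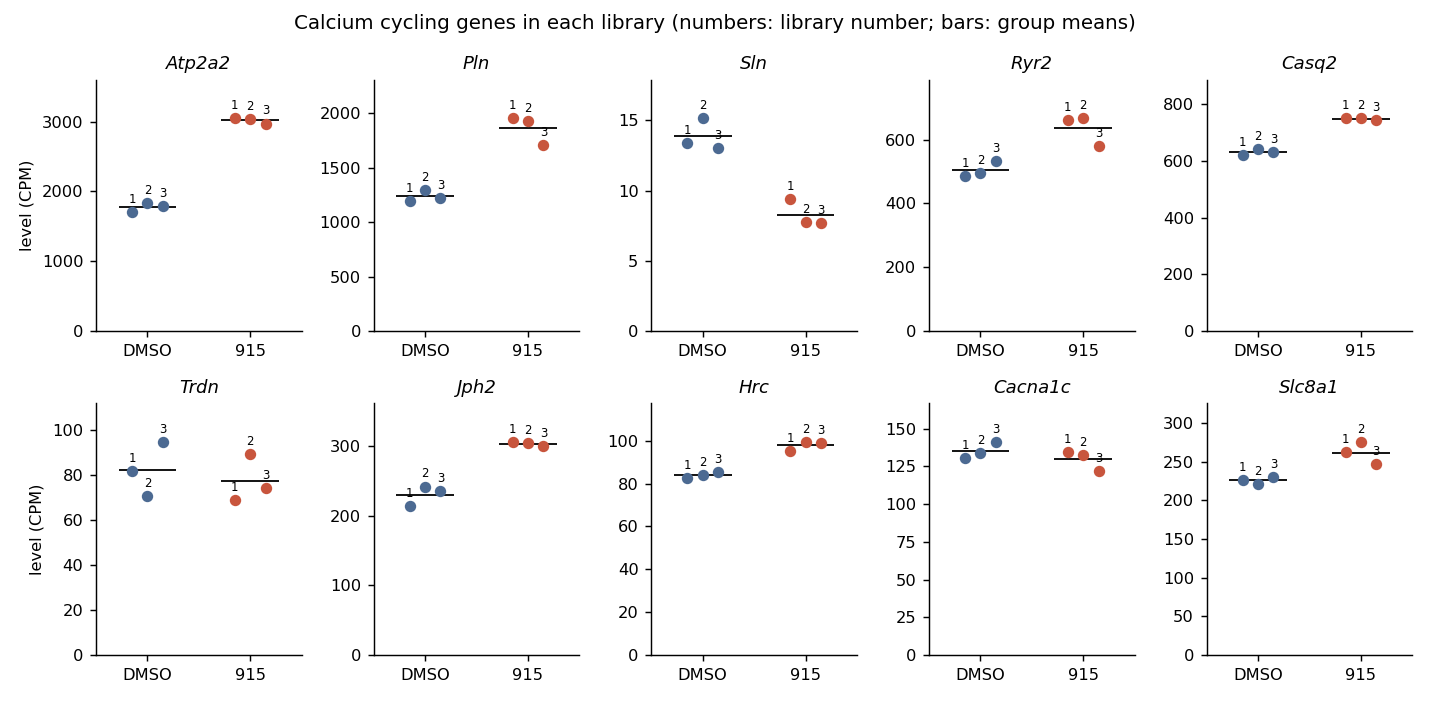
Level in CPM (vertical axes, from 0, a scale for each gene) of the 10 genes in each of 3 DMSO and 3 libraries of 915; points are libraries with their numbers and bars are group means. The groups are apart for 8 genes and overlap for Trdn and Cacna1c, and Sln is the gene whose 915 libraries lie below.

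The pump gene and the gene of its main brake rose, and the gene of the other brake fell. Atp2a2 (ENSRNOG00000001285), which encodes SERCA2, the pump that refills the store, was at 1708, 1833 and 1797 CPM in DMSO libraries 1 to 3 and at 3050, 3032 and 2973 CPM in 915 libraries 1 to 3. All 915 libraries lay above all DMSO libraries, by a gap many times the spread within either group. The means were 1779 ± 64.2 and 3018 ± 40.5 CPM (SD, n = 3 each), the log2 fold change was 0.81 ± 0.0466 (SE; edgeR adjusted p = 4.78e-09), and 96.7% of all genes tested had a smaller log2 fold change. Pln (ENSRNOG00000000413) encodes phospholamban, which lowers the calcium affinity of the pump until it is phosphorylated after adrenergic stimulation. It was counted at 1195, 1294 and 1220 CPM with DMSO and at 1954, 1926 and 1704 CPM with 915. Again the groups did not overlap, and 915 library 3 was the lowest of its group. The log2 fold change was 0.64 ± 0.0570 (means 1236 ± 51.5 and 1862 ± 137 CPM, edgeR adjusted p = 4.68e-07).

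Sln (ENSRNOG00000009047) encodes sarcolipin, a relative of phospholamban that is typical of atrial and slow skeletal muscle. It was scarce in every library, at 13.4, 15.1 and 13.0 CPM with DMSO and 9.42, 7.73 and 7.67 CPM with 915, which correspond to 515 to 629 and 253 to 360 counts. Each 915 library was below each DMSO library, and the log2 fold change was −0.69 ± 0.108 (means 13.9 ± 1.13 and 8.28 ± 0.990 CPM, edgeR adjusted p = 1.01e-04). Among 7 tested markers of atrial myocytes 4 fell as well, beside 25.5% lower over all genes tested. The atrial light chain genes Myl7 and Myl4 fell 1.82-fold and 1.51-fold, and the atrial regulators Nr2f2 and Nr2f1 fell 2.25-fold and 1.70-fold. Nppa, the atrial peptide gene that newborn ventricles also express, rose 1.47-fold, and the summed level of the atrial list, to which Nppa gave the largest part, was 1359 to 1544 CPM with DMSO and 1510 to 1742 CPM with 915. The part of atrial cells in the Sln result was not tested.

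The bases before the start of 3 of these genes are shown because the genes for pump, brake and release channel rose together while their promoters differ in composition. They are from RefSeq on the rat build GRCr8, a later build than that of the count table, 250 bases before the annotated start and read 5′ to 3′ on the strand of the gene. Capitals mark the GC box letters GGGCGG or their reverse complement.
Atp2a2, chr12:39733269-39733518, plus strand: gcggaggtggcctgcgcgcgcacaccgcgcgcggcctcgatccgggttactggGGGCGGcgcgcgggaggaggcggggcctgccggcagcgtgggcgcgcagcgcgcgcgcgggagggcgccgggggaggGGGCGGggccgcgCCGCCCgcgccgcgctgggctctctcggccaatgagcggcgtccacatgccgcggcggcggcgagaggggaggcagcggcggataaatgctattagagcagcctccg
Pln, chr20:33172244-33172493, plus strand: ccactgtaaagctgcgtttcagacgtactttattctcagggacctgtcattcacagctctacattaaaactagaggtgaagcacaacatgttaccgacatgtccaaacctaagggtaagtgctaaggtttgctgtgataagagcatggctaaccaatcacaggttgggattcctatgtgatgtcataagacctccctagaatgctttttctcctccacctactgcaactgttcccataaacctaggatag
Ryr2, chr17:63081277-63081526, plus strand: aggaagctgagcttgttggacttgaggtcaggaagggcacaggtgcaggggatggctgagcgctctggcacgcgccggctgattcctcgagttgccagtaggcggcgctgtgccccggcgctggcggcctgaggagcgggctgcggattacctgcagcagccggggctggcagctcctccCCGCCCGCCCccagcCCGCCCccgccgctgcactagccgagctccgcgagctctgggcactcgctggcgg

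In these letters Atp2a2 and Ryr2 each hold 3 matches to the GC box, a pair of which overlap in Ryr2, and Pln holds 0. Over the whole window of 300 bases (250 before and 50 after the start), GC content was 79.0% for Atp2a2, 73.0% for Ryr2 and 45.0% for Pln, where the median of 27457 gene promoters was 52.3%. RefSeq promoters matched 9 of the 10 genes, all but Sln. Among these 9, 2 held the GC box on either strand, against 34.9% of all promoters. The letters AAGGTCA, the core of the half-site that ERRs recognise, were found on either strand in 0 of the 9 and in 4.37% of all promoters. This says only that these letters are not in these windows.

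The release unit rose in 4 of its 5 genes. Ryr2 (ENSRNOG00000017060) encodes the ryanodine receptor through which the store empties at each beat. Its levels were 487, 496 and 534 CPM with DMSO and 660, 667 and 581 CPM with 915. The groups were apart, but 915 library 3 came closer to the DMSO libraries than the other two did. The log2 fold change was 0.38 ± 0.0579 (means 506 ± 25.1 and 636 ± 47.7 CPM, edgeR adjusted p = 8.58e-05).

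Jph2 (ENSRNOG00000008170) encodes junctophilin 2, which ties the store membrane to the surface membrane so that L-type channels face ryanodine receptors. It went from 214, 242 and 235 CPM to 306, 305 and 300 CPM, so that the 915 libraries were nearly level with each other and all above the DMSO libraries. The log2 fold change was 0.45 ± 0.0532 (edgeR adjusted p = 8.43e-06), the third largest of the 7 increases. Casq2 (ENSRNOG00000016243) encodes cardiac calsequestrin, the main calcium buffer of the store, and was at 621, 642 and 632 CPM with DMSO and 751, 750 and 744 CPM with 915. Its increase was small, a log2 fold change of 0.29 ± 0.0429, and large against the spread of the libraries (edgeR adjusted p = 5.82e-05).

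Hrc (ENSRNOG00000020719), whose product binds calcium in the store and interacts with both the pump and triadin, was at 82.7, 83.8 and 85.3 CPM with DMSO and 95.0, 99.5 and 98.8 CPM with 915. The groups did not overlap, and the log2 fold change was 0.27 ± 0.0491 (edgeR adjusted p = 4.14e-04). Trdn (ENSRNOG00000012609) encodes triadin, the protein that links calsequestrin to the ryanodine receptor. Its levels were 81.8, 70.5 and 94.7 CPM with DMSO and 68.9, 89.1 and 73.9 CPM with 915. The groups overlapped, with DMSO library 3 and 915 library 2 high and DMSO library 2 and 915 library 1 low. The log2 fold change was −0.04 with a 95% interval of −0.26 to 0.17 (edgeR adjusted p = 0.749), an interval that ends below the estimates for Ryr2, Jph2, Casq2 and Hrc. Its direction turned to 0.07 without DMSO library 3 and to 0.04 without 915 library 1.

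At the surface membrane the exit gene rose and the entry gene did not pass. Slc8a1 (ENSRNOG00000008479) encodes the sodium-calcium exchanger NCX1, which removes calcium between beats. It was at 227, 221 and 230 CPM with DMSO and 262, 276 and 247 CPM with 915. All 915 libraries were higher, by the smallest log2 fold change among the 7 increases (0.26 ± 0.0489, edgeR adjusted p = 4.93e-04). Cacna1c (ENSRNOG00000007090) encodes the pore of the cardiac L-type channel, the trigger of release. It was at 130, 134 and 141 CPM with DMSO and 135, 133 and 122 CPM with 915, and the groups overlapped. The log2 fold change was −0.01 with a 95% interval of −0.13 to 0.10 (edgeR adjusted p = 0.883), and its direction turned to 0.02 without DMSO library 3 and to 0.03 without 915 library 3.

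**Figure D2:**
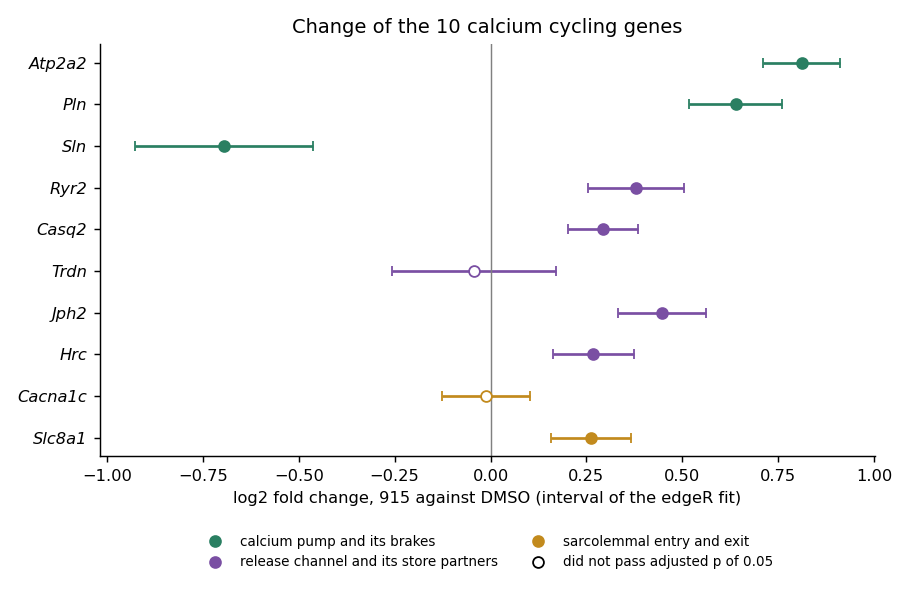
Log2 fold change of the 10 genes (915 against DMSO, horizontal axis) with 95% intervals from the edgeR fit, coloured by role; open points did not pass an adjusted p of 0.05. Atp2a2 is at 0.81 and Pln at 0.64, the increases in the release unit and of Slc8a1 lie between 0.26 and 0.45, Trdn and Cacna1c lie near 0, and Sln is at −0.69.

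Ratios within a library do not depend on how libraries are scaled, and they show how far the genes moved apart. The log2 ratio of Pln to Atp2a2, taken on CPM plus 0.1, was −0.52, −0.50 and −0.56 with DMSO and −0.64, −0.65 and −0.80 with 915. It was lower in every 915 library, by 0.17 on average, a 1.13-fold decrease of brake transcript per pump transcript. For Sln against Atp2a2 the decrease was 2.83-fold (−7.00 ± 0.0940 with DMSO and −8.50 ± 0.152 with 915, SD, n = 3 each). Ryr2, Jph2, Casq2, Hrc and Slc8a1 fell behind Atp2a2 by 1.29-fold to 1.47-fold, and Cacna1c and Trdn by 1.77-fold and 1.80-fold. For each of these 9 genes the ratio to Atp2a2 was lower in all 915 libraries than in all DMSO libraries. The direction of the mean ratios follows from the choice of Atp2a2, the gene that rose most. The exact two-sided permutation p was 0.1 for each of the 9 ratios, the smallest that 3 against 3 libraries allow. This test could therefore not pass 0.05, and the p was 0.105 after adjustment over 20 ratios. The log2 ratio of Pln to Sln, the brakes, went from 6.47 ± 0.0653 to 7.80 ± 0.132, above in all 915 libraries (exact permutation p = 0.1).

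Markers of cardiomyocyte identity were themselves higher, 10 of 10 measured, beside 24.3% of all genes tested. Their median log2 fold change was 0.53, with a summed level of 31649 to 32462 CPM with 915. Against the mean log2 level of these 10 genes, Atp2a2 was still higher in every 915 library, by 0.22 (−0.09 ± 0.0247 with DMSO and 0.13 ± 0.0322 with 915). For Pln the groups overlapped, with a difference of 0.05 (exact permutation p = 0.4) and 915 library 3 below the DMSO libraries. This value rests on single libraries: it was 0.11 without 915 library 3, with the groups then apart, and 0.010 without 915 library 1 or 2. The other 8 genes were lower relative to the identity genes in every 915 library than in every DMSO library, by 0.14 for Jph2, 0.21 for Ryr2, 0.30 for Casq2, 0.32 for Hrc, 0.33 for Slc8a1, 0.60 for Cacna1c, 0.63 for Trdn and 1.28 for Sln on the log2 scale (exact permutation p = 0.1 each). The identity genes differ between groups, so these ratios place the calcium genes among other myocyte genes and measure no change per cell.

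**Figure D3:**
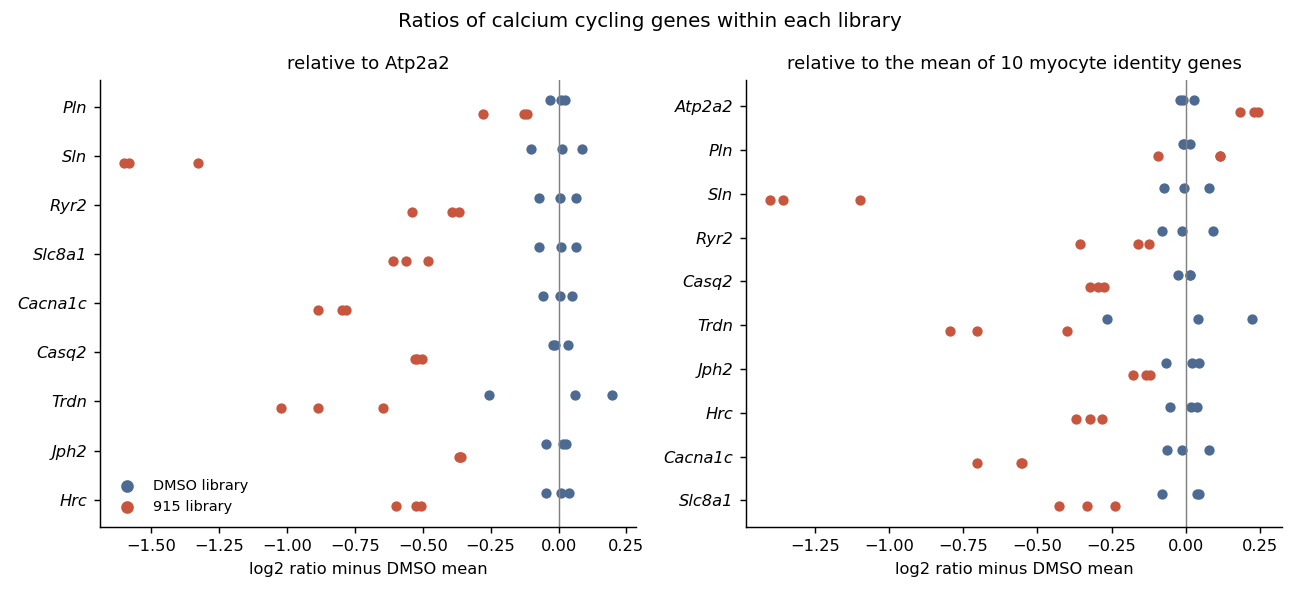
Log2 ratio of each gene to Atp2a2 (left) and to the mean of 10 myocyte identity genes (right), as the difference from the DMSO mean (horizontal axes); each point is a library. On the left all 915 libraries are below 0 for all 9 genes, and on the right Atp2a2 is above, the groups overlap for Pln, and the other 8 genes are below.

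More markers of other cells were lower than higher, beside 25.5% lower and 24.3% higher over all genes tested. Counts in lists as short as these are given as descriptions. Of 9 measured fibroblast markers 6 were lower and 2 higher, and their summed level went from the range above to 11113 to 11766 CPM. Most of that sum came from the collagen genes Col1a1 and Col3a1. Their means were 11988 and 7067 CPM with DMSO and 6289 and 2826 CPM with 915. Of the rest, Lum, Thy1, Tcf21 and Fap fell, Pdgfra and Dcn rose, and Postn did not pass (1606 and 1597 CPM). In the smooth muscle and pericyte list 4 of 6 markers fell and 1 rose (2539 to 2681 CPM with DMSO, 1744 to 1852 with 915), in the macrophage and leukocyte list 4 of 9 fell and 0 rose (222 to 240 and 118 to 144 CPM), and in the endothelial list 5 of 9 fell and 1 rose (72.1 to 74.9 and 57.0 to 57.4 CPM). None of these lists had a measured marker at 0 in all libraries. The skeletal muscle list was split, with 2 of 7 higher and 3 lower. The part of these marker changes in the results for the calcium genes was not tested.

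**Figure D4:**
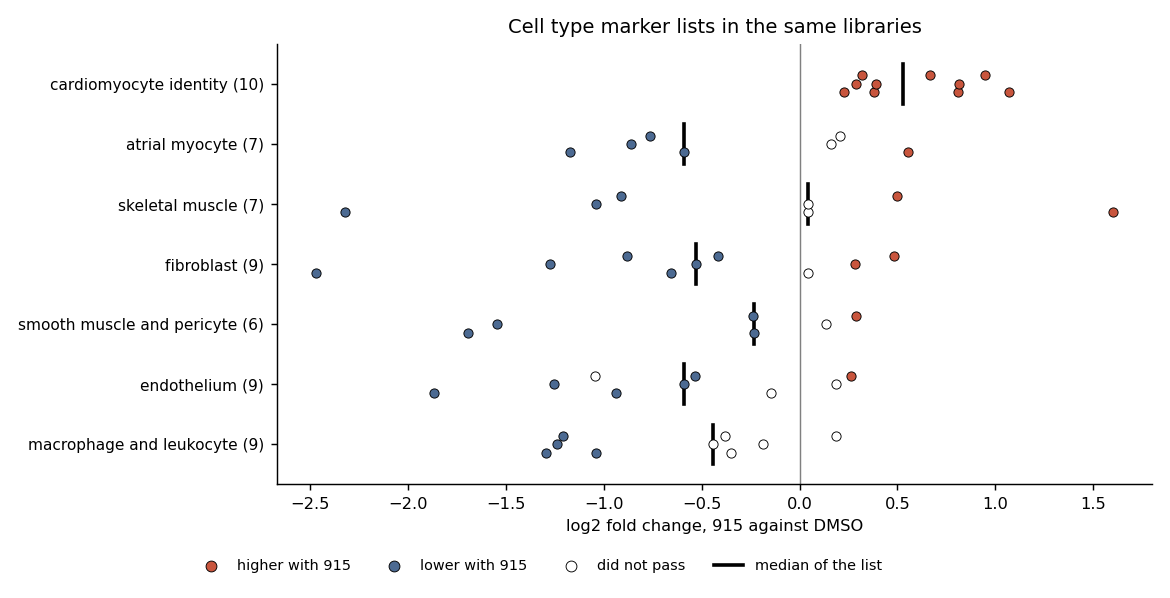
Log2 fold change (915 against DMSO, horizontal axis) of each tested marker gene, by cell type list with the number of genes tested; bars are list medians. All 10 identity genes are higher, with a median of 0.53, and most fibroblast, smooth muscle, endothelial and macrophage markers are lower or did not pass.

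In the rest of the calcium pathway more genes fell than rose. Of 78 tested genes in 8 lists arranged by role, 19 rose and 30 fell, and the median log2 fold change was −0.12, beside 24.3% higher and 25.5% lower and a median of −0.01 over all genes tested. The share that rose was close to that of all genes, and counts in lists this short are given as descriptions. Among 17 release channel paralogs and junction proteins 6 rose and 4 fell. Srl, which encodes the store protein sarcalumenin, rose 1.36-fold from 337 ± 4.99 to 442 ± 17.4 CPM. Tmem38a, the gene of a counter-ion channel of the store, rose 1.35-fold. Casq1 and Ryr3, the calsequestrin and ryanodine receptor genes best known outside the heart, fell 1.93-fold (60.1 ± 1.98 to 30.0 ± 0.634 CPM) and 2.40-fold (6.59 ± 0.810 to 2.66 ± 0.644 CPM). Among 8 pump paralogs and further pump regulators 2 rose and 1 fell. Atp2a1, the pump gene of fast skeletal muscle, fell 2.78-fold from 3.29 ± 0.312 to 1.14 ± 0.165 CPM, while the phosphatase gene Ppp1cb and Hax1, whose product binds phospholamban, rose 1.24-fold and 1.19-fold.

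In the list of voltage-gated calcium channel subunits, which also holds Rrad, Rem1 and Gem, 7 of 12 genes were lower and 3 higher, with a median of −0.51. Cacnb2, the only channel subunit gene among the 3 higher, rose 1.25-fold (70.7 ± 3.32 to 85.5 ± 1.77 CPM, edgeR adjusted p = 2.12e-04). Among the 7 lower, Cacna1b, Cacna1d and Cacna1s were scarce, with DMSO means of 6.65, 4.53 and 3.34 CPM. The accessory subunit genes Cacna2d2 and Cacna2d1 fell 1.79-fold and 1.49-fold, from 80.5 ± 1.04 to 43.5 ± 1.43 CPM and from 75.4 ± 12.0 to 49.0 ± 4.62 CPM. Rrad and Gem, which encode small GTP-binding proteins that restrain the L-type channel, rose 2.06-fold (99.8 ± 4.37 to 199 ± 9.66 CPM, edgeR adjusted p = 1.85e-09) and 1.88-fold (7.97 ± 0.504 to 14.4 ± 2.52 CPM). Rem1, a gene of the same family named after its values were seen, fell 1.70-fold (8.63 ± 0.812 to 4.88 ± 0.718 CPM, edgeR adjusted p = 2.55e-04). Of 5 other genes for calcium exit across the surface membrane 2 were lower and 0 higher. The surface pump gene Atp2b4 fell 1.92-fold, and Slc8a2, an exchanger gene best known in brain, fell 1.86-fold.

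Signalling around calcium was lower in most genes tested. Of 9 genes for inositol trisphosphate receptors and store-operated entry 6 fell and 1 rose. Itpr1, a receptor for inositol trisphosphate, fell 1.42-fold, the cation channel gene Trpc6 2.58-fold and the store sensor gene Stim1 1.15-fold, while the channel gene Orai3 rose 1.27-fold. Of 8 rows for calmodulin, its kinases and its phosphatase 6 fell and 1 rose. Camk2d, the main calmodulin-dependent kinase of heart, which phosphorylates ryanodine receptor and phospholamban, fell 1.35-fold from 147 ± 2.57 to 106 ± 5.42 CPM. Calm3 fell 1.36-fold, and Calm2, which the table lists under 2 identifiers whose reads may not be separable, fell 1.34-fold and 1.26-fold.

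Genes of luminal calcium-binding proteins, chaperones among them, were divided, with 2 of 8 higher and 3 lower. Hspa5 and Sdf4 rose 1.23-fold and 1.16-fold, and the reticulocalbin genes Rcn2 and Rcn1 fell 1.45-fold and 1.33-fold. Of 11 genes for mitochondrial calcium uptake and exchange 4 rose and 1 fell. The outer membrane channel genes Vdac1 and Vdac2 rose 1.41-fold and 1.19-fold, and Mcur1 and Letm1, genes of the inner membrane, rose 1.44-fold and 1.19-fold.

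**Figure D5:**
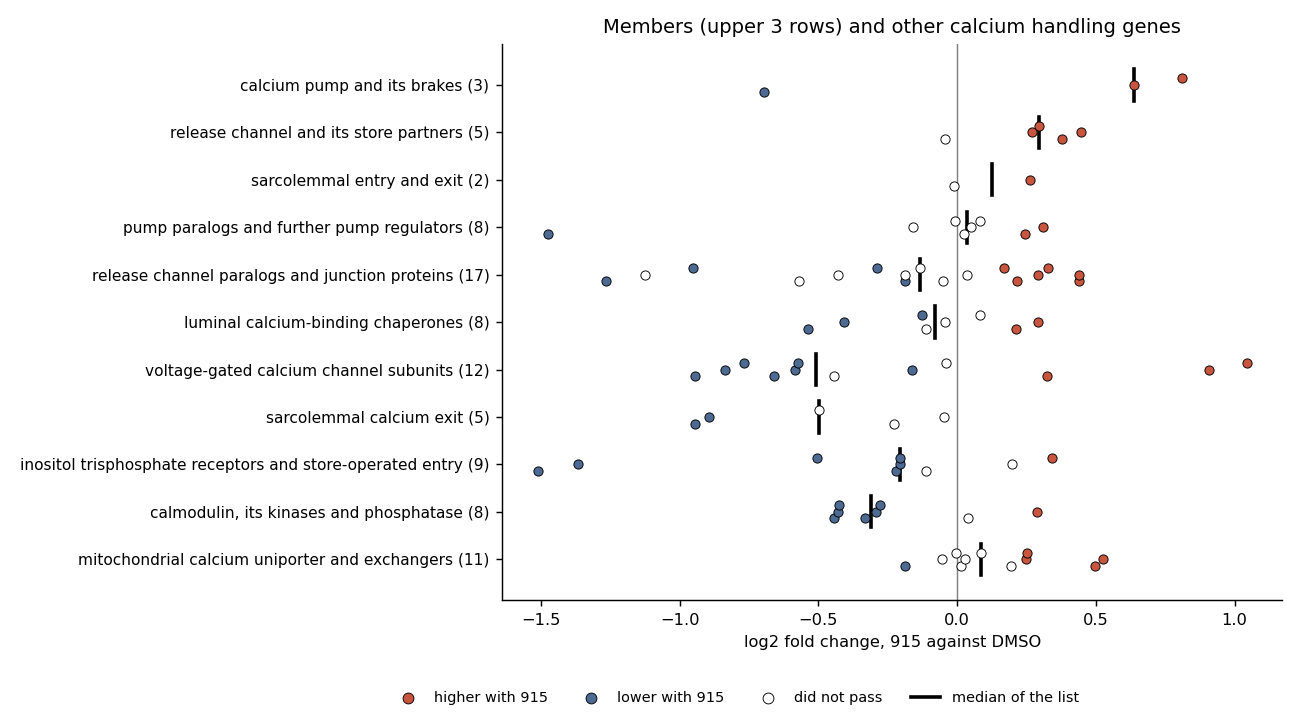
Log2 fold change (915 against DMSO, horizontal axis) of the 10 genes (upper 3 rows) and of 78 other calcium handling genes by role, with the number of genes tested; filled points passed an adjusted p of 0.05 and bars are medians. The upper rows lie mostly to the right of 0, and the rows for channel subunits, calcium exit, inositol trisphosphate receptors and calmodulin lie mostly to the left.

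The genes whose profile over the 6 libraries was most like that of a calcium gene were found by the root mean square difference of centred log2 levels among 11602 genes. For Atp2a2 they were Hspb8, a small heat shock protein gene (0.0276 on the log2 scale), Ctla2a (0.0303) and Cpt2, a gene of fatty acid entry into mitochondria (0.0308). Cpt2 went from 75.3, 82.3 and 82.7 CPM with DMSO to 143, 142 and 136 CPM with 915. For Pln they were Akr1cl (0.0306), Supt3h (0.0310) and Plekhh1 (0.0369), and like Pln each was lowest in library 3 of the 915 group. For Sln they were Rgs12 (0.0355), Mustn1 (0.0441) and Plxnd1 (0.0481). With 6 libraries in 2 groups this likeness mostly reflects the size of the group difference. The genes were picked for likeness, so a shared order of libraries follows from the choice.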

How the data were processed

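The data are RNA sequencing of 6 libraries. The submitters' processing notes name STAR (2.5.1a), Subread featureCounts (1.4.6-p5) and the rat build Rnor_6.0. How strand and multiply matching reads were handled is not given in the sources used here. Reads of overlapping genes and close paralogs may not be separable. The deposited count table holds raw counts per gene in 22641 rows, of which 993 repeat an identifier with the same counts and were dropped. The deposited CPM values equal these counts divided by the authors' total for each library. Those totals were worked back from the counts and CPM. Without the repeated rows the table holds 93.1% to 93.7% of them.

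Genes were filtered with filterByExpr (14253 kept) and tested on the counts with edgeR 4.0.16 in R 4.3.3: TMM scaling, quasi-likelihood model on group alone, two-sided, Benjamini-Hochberg adjustment over all genes tested, threshold 0.05. Fold changes are relative to TMM-scaled libraries, and a standard error is the log2 fold change divided by the square root of F. At an unadjusted p under 0.05, 7943 genes passed. Ratios used log2 of CPM plus 0.1 and an exact permutation test. The edgeR fit was also run on simulated counts. Far fewer genes differed there than in these data, in equal numbers up and down. That run therefore does not show how the fit behaves on these data. The alternatives were scaling by library totals, upper-quartile scaling, DESeq2 1.42.0, no filter, a filter at 1 CPM in 3 libraries, a replicate block and leaving out each library, and for ratios a pseudocount of 1.

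The 10 genes and the lists were chosen with earlier results of these data known, so lists are described by counts and medians and not tested. Of 95 entries for other calcium handling genes 79 matched the table, as 80 rows. The text names all 10 genes, up to 4 genes per list with the smallest p past the threshold and a mean of at least 1 CPM, and the 3 genes most like Atp2a2, Pln and Sln. Markers, paralogs, further channel genes and promoter motifs named beside them were chosen after their values were seen. Compound 332 was not analysed here.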

Additional observations from a re-analysis of the deposited data

How the results depend on the processing

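Under all 12 alternatives 7 of the 10 genes were called higher and 1 lower. Of 120 refitted log2 fold changes of the 10 genes 116 kept their direction and side of the threshold, and the 4 that turned belong to genes that did not pass in any fit. Leaving out each library, Trdn ranged from −0.15 to 0.071 and Cacna1c from −0.043 to 0.030. The same refits gave 0.78 to 0.84 for Atp2a2, 0.61 to 0.70 for Pln and −0.80 to −0.62 for Sln. The other calcium handling genes numbered 17 to 19 higher and 25 to 33 lower over all alternatives. For the 29 other calcium handling genes named by the rule all 348 refits, and for the ratios all 160, kept direction and side, although no ratio could pass a threshold of 0.05. The deviations of same-numbered libraries from their group means correlated at −0.03, −0.11 and −0.09. These values show no pairing by replicate number, but they cannot tell whether same-numbered libraries shared an isolation. With a replicate block 7 of the 10 genes were higher and 1 lower, other calcium handling genes numbered 18 and 26, and all genes 2996 and 3197, against 3460 and 3636 without it. Scaling by library totals moved the median of all genes from −0.01 to −0.06. For the paralogs near 1 CPM, depth limits the precision of the fold change.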

Other observations

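Paralogs of 6 of the 10 genes are set beside them here, in families chosen after their values were seen and with no test of a pattern. Among the SERCA pumps the heart gene Atp2a2 had a log2 fold change of 0.81, the fast skeletal gene Atp2a1 −1.47 (edgeR adjusted p = 3.42e-05) and Atp2a3 −0.16 (did not pass). Among ryanodine receptors Ryr2 was at 0.38, Ryr3 at −1.27 (edgeR adjusted p = 3.93e-05) and Ryr1, the skeletal form, at −0.43 (did not pass). Of the calsequestrin genes, Casq2 was at 0.29 and the skeletal gene Casq1 at −0.95 (edgeR adjusted p = 8.17e-09). Of the exchangers, Slc8a1 was at 0.26, Slc8a2 at −0.89 (edgeR adjusted p = 2.36e-03) and Slc8a3 at −0.05 (did not pass). Among L-type channel pores, Cacna1c was at −0.01 (did not pass), Cacna1d, known from pacemaker cells, at −0.59 and the skeletal gene Cacna1s at −0.94 (edgeR adjusted p = 0.0121 and 2.43e-03). Among junctophilins Jph1, the skeletal gene, rose like Jph2 (0.33 and 0.45), while Jph3 and Jph4 did not pass (0.04 and −0.57). The differences between paralogs were not tested. Except for Casq1, these paralogs that fell had means between 2.43 and 6.59 CPM with DMSO.

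Trdn, whose groups overlapped, shared its order of libraries with other genes, here also named after their values were seen. The genes most like it among 11602 were Slk, Veph1 and Itsn2, at root mean square differences of 0.0332, 0.0368 and 0.0427 on the log2 scale. They were picked for this likeness, so their shared order of libraries follows from the choice. Slk was at 87.5, 70.3 and 98.8 CPM with DMSO and 69.5, 90.4 and 76.0 CPM with 915, so DMSO library 3 and 915 library 2 were high as for Trdn. The channel subunit gene Cacna2d1 had the same order within each group except for the lower 2 libraries of 915, at 73.4, 64.5 and 88.3 CPM and at 48.0, 54.0 and 44.9 CPM.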
